A study of Mus musculus with 18 samples.

Results

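The response of mouse macrophages to a choline kinase inhibitor was compared between cells left naïve and cells polarized with IL-4. The 12 libraries involved were chosen by their labels from the 18 of the series, and fall into 4 groups of 3: vehicle (Veh) or RSM-932a (RSM), each in naïve (M[0]) or IL-4-polarized (M[IL-4]) cells. The other 6 libraries received hemicholinium-3 (HC3), an inhibitor of choline uptake. They entered the same fit and are used only where the 2 inhibitors are compared. All groups were bone marrow-derived macrophages (BMDM) of female C57BL/6J mice aged 12 weeks, grown in DMEM with supernatant of L-929 fibroblasts and harvested on day 7. Cells received 0.1% DMSO (Veh), 5 µM RSM or 250 µM HC3 for 24 h, and then either no cytokine or 20 ng/mL IL-4 for another 24 h. Marrow came from 3 individual mice, but the labels do not say whether a replicate number marks the same mouse in every group. Where it does not, p-values measure only the spread between these libraries.

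IL-4 binds a receptor that contains IL-4Rα and activates the transcription factor STAT6, which turns on the genes of alternative activation, among them *Retnla* (RELMα), *Arg1* and *Chil3*. Choline kinase phosphorylates choline in the first step of the CDP-choline pathway, the main route to phosphatidylcholine, a major membrane lipid. Because every group had its own vehicle control, each gene has an RSM response without IL-4 and an RSM response with IL-4. The interaction is the second minus the first, on the log2 scale. It is positive where RSM raised a gene more, or lowered it less, with IL-4 than without, and negative where the reverse held.

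Total counts were 17457796 to 19522255 per library, at which 3 counts correspond to 0.154 to 0.172 CPM (counts scaled to library size). Mitochondrial transcripts took 1.68% to 2.20% of the counts in the Veh libraries and 0.665% to 0.829% in the RSM libraries. All 10 macrophage identity genes, among them *Csf1r*, *Adgre1*, *Cd68* and *Itgam*, were detected, with summed levels of 21359.8 to 22266 CPM in Veh M[0], 16948 to 18169 in RSM M[0], 12034 to 12504 in Veh M[IL-4] and 11619 to 13498 in RSM M[IL-4]. Of 9 neutrophil markers, 1 passed the count filter and the summed level stayed at or below 2.09 CPM, with *S100a9*, *Ngp*, *Elane* and *Retnlg* at 0 counts in all 12 libraries. None of 6 T and NK cell markers passed it. Of 7 stromal markers, 6 passed, with summed levels of 520.5 to 919.9 CPM in Veh M[0], 1066 to 1558 in RSM M[0], 265 to 668 in Veh M[IL-4] and 529.7 to 1085 in RSM M[IL-4]. Of 6 B cell markers 2 passed, with 21.4 to 27.9 CPM in Veh M[0], 0.805 to 1.45 in RSM M[0], 4.12 to 6.82 in Veh M[IL-4] and 0.359 to 0.687 in RSM M[IL-4]. Of 7 mast cell and eosinophil markers 3 passed, with *Mcpt4*, *Fcer1a* and *Epx* at 0 counts in all 12 libraries and summed levels of 6.97 to 8.34 CPM in Veh M[0], 2.92 to 4.4 in RSM M[0], 11.8 to 28.1 in Veh M[IL-4] and 1.59 to 2.97 in RSM M[IL-4]. Of 7 dendritic cell markers 1 passed, with 1.03 to 1.33, 0.691 to 1.22, 2.0 to 3.12 and 0.740 to 1.47 CPM in the same order. What these other cells contributed to the results was not tested. Replicate 3 of RSM M[IL-4] stood apart from its 2 companions in interferon-stimulated genes, and the interaction calls on those genes are given with and without it.

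RSM acted differently with and without IL-4 on a small share of genes. A count of 10 or more in 2 or more of the 18 libraries was required of a gene, and of the 14979 that met it, 321 (2.14%) were called for the interaction, that is, had a Benjamini-Hochberg FDR under 0.05 in edgeR's quasi-likelihood test and a log2 interaction of at least 1 or at most -1. The interaction was positive for 183 genes (1.22%) and negative for 138 (0.921%). With the FDR alone, 1377 genes (9.19%) passed. By comparison, RSM itself changed 1732 genes in M[0] (11.6%) and 1655 in M[IL-4] (11.0%) at the same thresholds. Over all genes tested the median interaction was 0.01. Leaving out replicate 3 of every group lowered the count to 128, with 73 positive and 55 negative, whereas without replicate 1 or 2 it was 253 or 278. When RSM M[IL-4] replicate 3 alone was left out, 278 genes were called, 140 positive and 138 negative. The larger number of positive calls thus rested largely on that library. With a block for the replicate number within each polarization, 416 genes were called, 240 positive and 176 negative.

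The called genes fell into a few patterns, which are visible in the plot of the RSM response in M[0] against that in M[IL-4]. Among the 183 genes with a positive interaction, 62 were called lower with RSM in M[0] and not called in M[IL-4], 41 were called higher in M[IL-4] only, 20 were called lower in both and 11 higher in both. A further 5 were lower in M[0] and higher in M[IL-4], and 44 were called in neither. Among the 138 with a negative interaction, 51 were called lower in M[IL-4] only, 33 higher in M[0] only, 16 lower in both, 13 higher in both, 4 higher in M[0] and lower in M[IL-4], and 21 in neither. A gene called with one condition and not the other is shown to differ by its interaction, not by these 2 calls. The sign of the interaction was the same in all 3 same-numbered sets of libraries for 183 of 183 positive and 136 of 138 negative genes, as a call itself favours. Because these are bulk libraries, fewer cells of a type and less RNA per cell cannot be told apart.

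**Figure D1:**
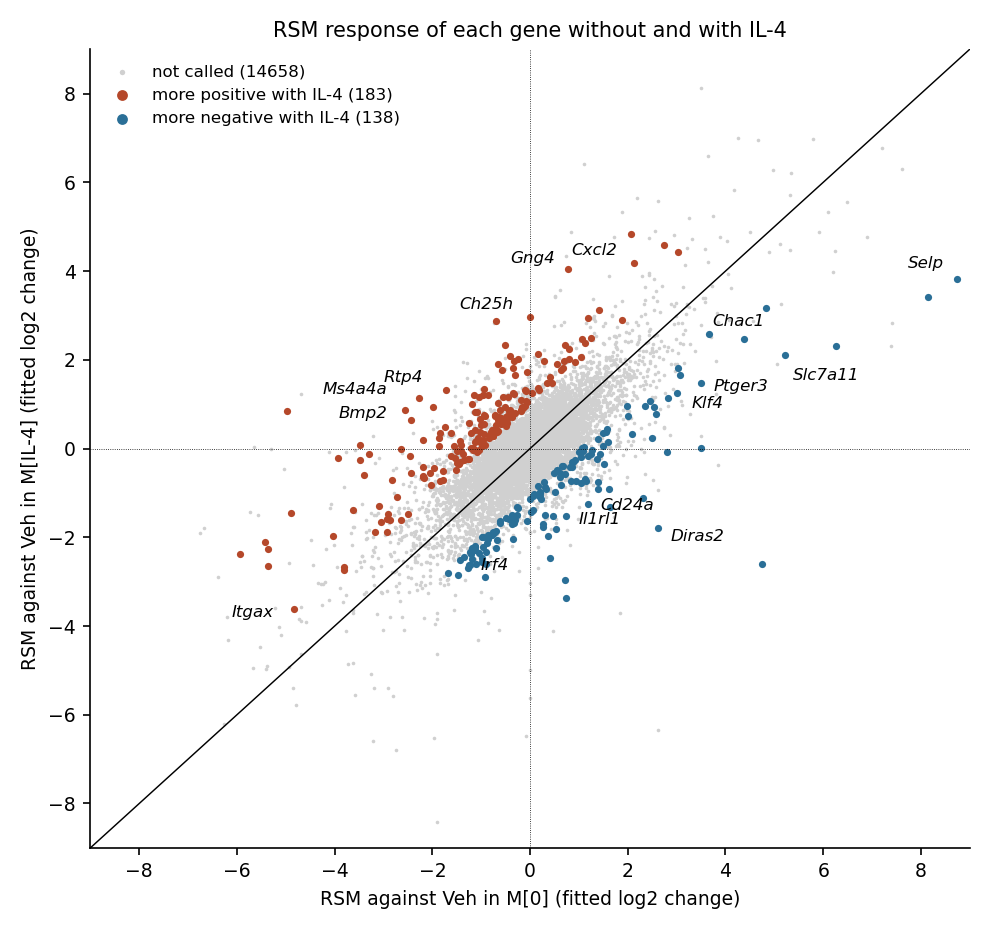
Fitted log2 change with RSM against Veh in M[0] (horizontal axis) and in M[IL-4] (vertical axis) for the 14979 genes tested, each a point. The 183 genes called for a positive interaction lie above the diagonal and the 138 called for a negative one below it; fitted changes of genes with few counts, such as *Selp*, depend on the prior count.

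The integrated stress response is the program in which the transcription factor ATF4 turns on genes of amino acid synthesis and transport. RSM raised most of its genes with and without IL-4, and for 9 genes the RSM response was called more negative with IL-4. Of the 34 tested genes of the list, RSM raised 31 in naïve cells and 21 in M[IL-4]. The 9 called interactions were all negative, against 0.921% of all genes called in that direction. With the FDR alone, 21 were negative, against 620 of all 14979 genes, and 0 positive. The median interaction was -0.59, and 7 stayed called without replicate 3.

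*Slc7a11*, which encodes the cystine-glutamate exchanger, had the largest called interaction of the list. It lies at chr3:49892526-50443614, minus strand of GRCm38. It was at 4.42, 5.87 and 4.03 CPM in Veh M[0] and at 169, 200.4 and 163 CPM in RSM M[0]. With IL-4 it was at 11.0, 17.2 and 13.05 CPM under Veh and 54.2, 63.9 and 58.4 CPM under RSM. All 3 Veh M[IL-4] libraries were thus above all Veh M[0] libraries, while all RSM M[IL-4] libraries were below all RSM M[0] libraries. The log2 change with RSM was 5.22 ± 0.27 (standard error, SE) in M[0] and 2.10 ± 0.24 in M[IL-4], an interaction of -3.12 ± 0.36 (FDR = 1.71e-05).

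*Chac1*, which encodes a glutathione-degrading enzyme, behaved in another way. It was at 0.995, 0.764 and 0.807 CPM in Veh M[0] and 3.71, 1.92 and 3.70 CPM in Veh M[IL-4]. With RSM it was at 16.0, 17.1 and 20.7 CPM in RSM M[0] and 20.0, 15.4 and 16.7 in RSM M[IL-4]. The RSM libraries of both conditions overlapped, and the vehicle libraries did not. Its interaction was -1.90 ± 0.31 (FDR = 0.000528), and without replicate 3 it was -1.58 (FDR = 0.095). Serine and one-carbon synthesis genes were also called. *Phgdh*, the first enzyme of serine synthesis, averaged 16.0 ± 5.26 CPM (SD, n = 3) in Veh M[0] and 58.5 ± 11.5 in Veh M[IL-4], against 95.9 ± 5.66 in RSM M[0] and 100.1 ± 9.07 in RSM M[IL-4], an interaction of -1.80 ± 0.23. Since 84.3% of its transcript has a near-identical copy elsewhere, its counts are uncertain. *Psat1*, the next enzyme, had an interaction of -1.61 ± 0.23, with a called RSM rise in M[0] (1.38) and a log2 change of -0.23 in M[IL-4] (FDR = 0.267).

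*Mthfd2*, an enzyme of mitochondrial folate metabolism, rose from 37.1, 30.4 and 32.8 CPM to 185, 165 and 163 CPM with RSM in M[0], and was at 82.1, 82.7 and 83.8 and 158, 161 and 163 CPM in Veh and RSM M[IL-4], an interaction of -1.40 ± 0.10 (FDR = 7.24e-08). Asparagine synthetase (*Asns*) was at 36.8, 27.1 and 31.5 CPM in Veh M[0], 188, 170.4 and 166 in RSM M[0], 85.7, 66.9 and 81.0 in Veh M[IL-4] and 166, 159 and 164 in RSM M[IL-4]. The 3 Veh M[IL-4] libraries lay between the Veh M[0] and the RSM libraries, and the RSM groups lay close together. Its interaction was -1.39 ± 0.14 (FDR = 3.15e-06). The other called members were the amino acid transporters *Slc7a1* (-1.02) and, named after their values had been seen, *Slc7a5* (-1.21) and the cysteine-forming enzyme *Cth* (-1.66). The call for *Slc7a1* was lost at -0.95 to -0.97 without any 1 of Veh M[0] replicate 2, RSM M[0] replicate 3, Veh M[IL-4] replicate 1 or RSM M[IL-4] replicate 2. That for *Cth* was lost without Veh M[0] replicate 2 (-1.40), without replicate 1, 2 or 3 of every group, and with no count filter. Among members that were not called, *Ddit3* (CHOP) rose with RSM by 2.99 in M[0] and 2.47 in M[IL-4] on the log2 scale, and *Trib3*, a pseudokinase induced by ATF4, by 6.49 and 5.56.

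The bases before the start of *Slc7a11*, *Chac1* and *Asns* are shown because each holds the composite element to which ATF4 dimers are known to bind (TGATGNAA, on either strand, in capitals). They come from RefSeq on GRCm38.p6, 5′ to 3′ along the gene, at chr3:50443614-50443863, minus strand, chr2:119350992-119351241, plus strand and chr6:7693210-7693459, minus strand.
Slc7a11: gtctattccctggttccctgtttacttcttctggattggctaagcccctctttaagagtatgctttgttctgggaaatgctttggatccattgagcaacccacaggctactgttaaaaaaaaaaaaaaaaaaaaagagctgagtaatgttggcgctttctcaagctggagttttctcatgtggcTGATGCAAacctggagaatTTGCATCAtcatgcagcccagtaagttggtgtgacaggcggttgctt
Chac1: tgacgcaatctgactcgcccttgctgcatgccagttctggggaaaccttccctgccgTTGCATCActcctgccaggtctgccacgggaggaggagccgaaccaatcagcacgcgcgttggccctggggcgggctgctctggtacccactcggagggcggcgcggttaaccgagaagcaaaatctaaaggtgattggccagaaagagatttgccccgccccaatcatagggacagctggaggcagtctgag
Asns: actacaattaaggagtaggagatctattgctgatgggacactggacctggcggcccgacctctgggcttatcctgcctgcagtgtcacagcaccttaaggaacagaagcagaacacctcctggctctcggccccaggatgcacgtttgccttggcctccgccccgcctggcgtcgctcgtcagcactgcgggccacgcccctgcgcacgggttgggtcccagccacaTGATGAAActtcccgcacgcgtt
In the window from 250 bases before to 50 after a start, these letters occur in 10 of 27 genes of the integrated stress response list with a promoter in that table (37.0%), in 12 of 128 called positive genes (9.38%), in 9 of 97 called negative genes (9.28%) and in 303 of all 10544 tested genes with one (2.87%). A match of letters does not show that the factor binds there.

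Sterol synthesis genes, which carry out the steps from acetyl-CoA to cholesterol and are driven by SREBP2, carried negative interactions. Of 23 tested genes, 11 were called lower with RSM in M[IL-4] and 4 in M[0]. The interaction was called for 5, all negative (0.921% of all genes), with a median of -0.63 over the list. With the FDR alone 12 were negative, against 620 of all 14979 genes. *Cyp51*, a sterol demethylase, was at 47.7, 35.3 and 42.2 CPM in Veh M[0] and 40.9, 28.8 and 31.3 in RSM M[0], so that these groups overlapped, and with IL-4 it was at 74.6, 85.9 and 76.8 CPM under Veh and 26.1, 23.2 and 27.9 under RSM, with no overlap. Its interaction was -1.31 ± 0.18 (FDR = 7.37e-05). *Fdft1* and *Idi1* were also called, at -1.09 and -1.16. The call for *Fdft1* was lost without RSM M[IL-4] replicate 2 (-0.97), and without replicate 3 the list had 3 calls, with *Idi1* not among them (FDR = 0.135). Counts of *Fdft1* are uncertain because 18.3% of its exons overlap a gene on the opposite strand, and those of *Idi1* because 33.3% of its transcript has a near-identical copy.

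Of 15 LXR target and fatty acid synthesis genes, 2 desaturases were called, both negative (0.921% of all genes). *Scd2* was at 59.1, 38.2 and 58.5 CPM in Veh M[0] and 103, 76.0 and 99.7 in RSM M[0], but at 104, 107 and 120.2 in Veh M[IL-4] and 80.3, 49.95 and 67.8 in RSM M[IL-4]. The fitted change was upward in M[0] and downward in M[IL-4], with neither past the fold threshold, and the interaction was -1.58 ± 0.24 (FDR = 0.000283). *Fads2* had an interaction of -1.22 ± 0.31, which lost its call without RSM M[0] replicate 1 (-1.09) or RSM M[IL-4] replicate 2 (-0.98).

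Genes of cell division were lowered by RSM in both conditions, and their interactions lay almost all on the negative side. Of 38 DNA replication genes, RSM lowered 10 in naïve cells and 24 in M[IL-4], with a median interaction of -0.57. For 25 mitosis genes the counts were 13 and 24 and the median was -0.86, with all 25 on the negative side. The interaction was called for 3 replication genes (*Cdc6*, *Uhrf1* and *E2f2*) and 2 mitosis genes (*Bub1* and *Aurkb*), all negative (0.921% of all genes). With the FDR alone it was negative for 14 and 12, against 620 of all 14979 genes, and positive for none. The counts of *Uhrf1* (-1.38) are uncertain, with 44.3% of its transcript near-identical to another, and *E2f2* was at -1.37. *Cdc6*, which loads the replicative helicase, was at 6.75, 5.35 and 6.29 CPM in Veh M[0], 5.28, 3.92 and 5.18 in RSM M[0], 10.2, 11.3 and 11.5 in Veh M[IL-4] and 3.11, 2.10 and 2.77 in RSM M[IL-4]. The M[0] groups differed little and the M[IL-4] groups lay far apart, an interaction of -1.69 ± 0.26 (FDR = 0.000267). Without replicate 3, 1 replication gene, other than these 3, and 0 mitosis genes were called in edgeR's test, with medians of -0.66 and -0.90. The list counts also moved with single libraries. The interaction was called for 11 mitosis genes without RSM M[0] replicate 2, 9 without RSM M[IL-4] replicate 1, 7 without Veh M[0] replicate 1 and 0 without RSM M[0] replicate 1, and for 1 without Veh M[0] replicate 2 or Veh M[IL-4] replicate 2 or 3. For replication genes the count was 6 without RSM M[0] replicate 2, Veh M[IL-4] replicate 3 or RSM M[IL-4] replicate 1, and 5 without Veh M[0] replicate 1, Veh M[IL-4] replicate 2 or RSM M[IL-4] replicate 3. *Cdc6* (FDR = 0.0528), *Uhrf1* (0.0586) and *E2f2* (0.0586) missed the FDR threshold without replicate 3. The mitosis kinases *Bub1* (-1.02) and *Aurkb* (-1.04) sat at the threshold, and each lost its call without any 1 of 4 libraries: RSM M[0] replicate 1 (-0.81 and -0.85) and Veh M[IL-4] replicate 3 (-0.99 and -0.94) for both, Veh M[0] replicate 3 (-0.98) and Veh M[IL-4] replicate 2 (-0.99) for *Bub1*, and Veh M[0] replicate 2 (-0.97) and RSM M[IL-4] replicate 3 (-0.95) for *Aurkb*.

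Among 20 glycolysis genes, 1 was called, against 2.14% of all genes, so the count says little about the list. *Hk2*, the hexokinase that traps glucose in the cell, was at 34.7, 33.5 and 41.1 CPM in Veh M[0] and 98.6, 97.1 and 90.5 in RSM M[0], and at 64.1, 49.3 and 48.3 in Veh M[IL-4] and 60.6, 62.1 and 64.7 in RSM M[IL-4]. The M[0] groups did not overlap and the M[IL-4] groups did, an interaction of -1.18 ± 0.13 (FDR = 1.51e-05). With the FDR alone 14 of the 20 were negative, against 620 of all 14979 genes, and 0 positive, with a median of -0.54. Without replicate 1 of every group *Hk2* was at -0.96, short of the fold threshold, and 0 genes of the list were called. Without Veh M[0] replicate 3 or replicate 3 of every group, 2 genes were called, both negative.

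The IL-4 receptor and its signalling chain carried 2 calls among 16 tested genes, against 2.14% of all genes tested. Both were negative (0.921% of all genes) and of the SOCS family, which damp cytokine receptors and are themselves STAT targets. *Socs2* was at 4.15, 2.94 and 5.16 CPM in Veh M[0] and 5.87, 4.81 and 4.57 in RSM M[0], with overlapping groups. In M[IL-4] it was at 13.6, 19.6 and 13.6 CPM under Veh and 4.89, 4.95 and 6.81 under RSM, which did not overlap. Its interaction was -1.80 ± 0.29 (FDR = 0.000519), and that of *Cish* was -1.80 ± 0.37 (FDR = 0.00386), with 11.5% of the exons of *Cish* overlapped by a gene on the opposite strand and 10.7% of the *Socs2* transcript near-identical to another. Without replicate 3, *Cish* was at -1.34 (FDR = 0.228). The receptor chain *Il4ra* rose with RSM in M[IL-4], from 68.6, 63.6 and 61.4 CPM to 152, 138 and 148 CPM, and its interaction of 0.72 ± 0.09 passed the FDR (6.2e-05) but not the fold threshold. *Jak3* (0.76 ± 0.16) and *Inpp5d* (0.46 ± 0.09), a lipid phosphatase that limits receptor signalling, also passed the FDR only. *Stat6* itself had a log2 change with RSM of -0.10 ± 0.05 without and 0.09 ± 0.05 with IL-4 (interaction FDR = 0.0864). *Socs1*, *Socs3*, *Irs2*, *Il2rg*, *Il13ra1*, *Jak1*, *Jak2*, *Tyk2*, *Ptpn1* and *Ptpn6* did not pass the FDR, with interactions from -0.12 to 0.95. Without RSM M[IL-4] replicate 2, 1 gene of the list was called positive.

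Transcription regulators of alternative activation carried more calls, 7 of 16, of which 6 were negative (0.921% of all genes) and 1 positive (1.22% of all genes). Without Veh M[0] replicate 1, or without replicate 3 of every group, 3 were called negative, and without Veh M[IL-4] replicate 1, 2 were called positive. *Klf4*, which cooperates with STAT6 and lies at chr4:55527143-55532466, minus strand, was at 12.4, 10.3 and 12.7 CPM in Veh M[0] and 96.7, 87.7 and 99.0 in RSM M[0]. In M[IL-4] it was at 75.7, 74.4 and 76.4 CPM under Veh and 192, 165 and 182 under RSM. RSM raised it in both conditions, by 3.00 ± 0.09 and 1.25 ± 0.08 on the log2 scale, and the interaction was -1.75 ± 0.12 (FDR = 8.35e-08). RSM M[0] libraries already exceeded all Veh M[IL-4] libraries, and RSM M[IL-4] libraries were the highest. *Ppargc1b* (PGC-1β), a coactivator of mitochondrial and lipid genes, showed a different order, with 1.60, 1.23 and 1.99 CPM in Veh M[0], 1.87, 1.62 and 2.31 in RSM M[0], 8.83, 9.93 and 7.73 in Veh M[IL-4] and 2.85, 2.85 and 2.45 in RSM M[IL-4]. Only the Veh M[IL-4] libraries stood above the rest, and the interaction was -1.96 ± 0.30 (FDR = 0.00029). *Bhlhe40* followed the same direction at -1.25 ± 0.21 (FDR = 0.000628).

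*Irf4*, a STAT6-induced factor needed for alternative activation, fell with RSM in both conditions, from 3.70, 4.82 and 4.03 to 2.13, 1.52 and 1.23 CPM in M[0] and from 62.3, 83.1 and 69.4 to 10.8, 16.1 and 12.5 CPM in M[IL-4]. Its interaction of -1.09 ± 0.29 lost its call without any 1 of 5 libraries, at -0.84 (RSM M[0] replicate 1), -0.95 (RSM M[IL-4] replicate 1), -1.01 and -1.06 (Veh M[0] replicates 1 and 3) and -0.97 (Veh M[IL-4] replicate 2). *Myc* (-1.04 ± 0.22) and the histone demethylase *Kdm6b* (-1.06 ± 0.25) were close to the fold threshold. *Myc* lost its call at -0.91 to -0.997 without Veh M[0] replicate 1, RSM M[0] replicate 1 or 3, or RSM M[IL-4] replicate 2 or 3, and *Kdm6b* at -0.94 to -0.997 without Veh M[0] replicate 1, Veh M[IL-4] replicate 2, or RSM M[IL-4] replicate 2 or 3. *Egr2* (0.83 ± 0.15), *Pparg* (0.72 ± 0.15) and *Maf* (0.94 ± 0.11) were positive with the FDR alone, while *Batf3*, *Bhlhe41*, *Nr1h3*, *Rxra*, *Cebpb* and *Tfec* did not pass it, at -1.25 to 0.39.

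For 7 of 23 IL-4 effector genes the interaction could not be measured, as a group of naïve libraries held 3 counts or fewer. *Retnla* had 0 counts in all 6 M[0] libraries, and 14805, 26159 and 26869 counts in Veh M[IL-4] against 392, 482 and 606 in RSM M[IL-4]. *Chil3* had at most 1 count in any M[0] library and averaged 419.9 ± 119 CPM in Veh M[IL-4] and 1218 ± 371 CPM in RSM M[IL-4] (SD, n = 3), a rise of 1.54 ± 0.23 on the log2 scale. *Arg1*, with at most 6 counts in an M[0] library, was at 193, 150.3 and 201 CPM in Veh M[IL-4] and 380.2, 456 and 557 CPM in RSM M[IL-4], without overlap. These effectors therefore moved both ways under RSM in M[IL-4]: 7 of the 23 tested were called higher and 9 lower. The chemokine gene *Ccl22* was among the latter, with 84, 115 and 97 counts under Veh and 6, 14 and 6 under RSM, and 9 and 0 counts summed over Veh M[0] and RSM M[0].

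Where M[0] expression allowed the comparison, 4 effectors were called for the interaction, all positive (background 1.22%). *Ch25h*, which makes 25-hydroxycholesterol, was at 1.27, 0.940 and 1.34 CPM in Veh M[0] and 1.49, 0.941 and 1.13 in RSM M[0], with overlapping groups. In M[IL-4] it was at 3.88, 3.02 and 4.65 CPM under Veh and 34.4, 22.3 and 33.8 under RSM, an interaction of 2.97 ± 0.34 (FDR = 1.71e-05). A gene on the opposite strand overlaps 11.5% of its exons. The C-type lectin *Clec10a* (CD301a) had the same arrangement, with 5.05 ± 1.26 and 4.05 ± 0.711 CPM in M[0], 37.9 ± 9.19 and 119.8 ± 6.64 CPM in M[IL-4] (SD, n = 3) and an interaction of 1.97 ± 0.28. *Clec7a* (Dectin-1), a receptor for fungal glucans, was instead lowered by RSM mostly in M[0], from 264, 279.8 and 225 to 53.7, 65.1 and 50.4 CPM, with 678, 915 and 699 CPM in Veh M[IL-4] and 395, 607 and 489 in RSM M[IL-4]. Its interaction was 1.56 ± 0.28 (FDR = 0.00127), and 1.52 without replicate 3 (FDR = 0.0518).

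*Itgax* (CD11c) fell with RSM in both conditions, from 63.0, 62.7 and 57.2 to 2.88, 2.20 and 1.39 CPM in M[0] and from 1021, 1273 and 1031 to 87.0, 99.7 and 84.0 CPM in M[IL-4]. No groups overlapped, and the interaction of 1.20 ± 0.23 (FDR = 0.00204) was 0.97 without RSM M[0] replicate 3, which ended the call. The mannose receptor *Mrc1* passed the FDR only, at 0.79 ± 0.16, with 457 ± 21.7 and 459 ± 61.6 CPM in Veh and RSM M[0] and 1783 ± 253 and 3089.7 ± 232 in Veh and RSM M[IL-4] (SD, n = 3). The scavenger receptor *Cd163* (-0.77 ± 0.24), *Cd274* (-0.48 ± 0.22), *Tgm2* (0.41 ± 0.25), *Slc7a2* (0.57 ± 0.22), *Ptgs1* (-0.26 ± 0.13), *Il1rn* (0.56 ± 0.30), *Flt1* (-0.68 ± 0.43) and *F13a1* (-1.43 ± 0.60) did not pass the FDR. *Mgl2* and *Ccl24* had 0 to 4 counts in every Veh and RSM M[0] library, and *Ccl17*, *Chil4*, *Pdcd1lg2* and *Cdh1* at most 3 counts summed over a group, so that no interaction is given for them. With a replicate block within each polarization, 2 effectors with a negative interaction were called in addition, and without Veh M[0] replicate 3 or Veh M[IL-4] replicate 2 it was 1.

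The STAT6 site, TTCNNNNGAA, which reads the same on both strands, occurs in the promoter windows of 6 of 17 effectors in the RefSeq table (35.3%): *Ccl17*, *Clec7a*, *Il1rn*, *Itgax*, *Pdcd1lg2* and *Retnla*. It occurs in 16 of 128 called positive genes (12.5%), 8 of 97 called negative genes (8.25%) and 710 of all 10544 genes with a promoter (6.73%). The bases before the start are shown for *Itgax* (chr7:128129300-128129549, plus strand) and *Retnla* (chr16:48842359-48842608, plus strand), which RSM lowered in M[IL-4], with the site in capitals, again from RefSeq on GRCm38.p6.
Itgax: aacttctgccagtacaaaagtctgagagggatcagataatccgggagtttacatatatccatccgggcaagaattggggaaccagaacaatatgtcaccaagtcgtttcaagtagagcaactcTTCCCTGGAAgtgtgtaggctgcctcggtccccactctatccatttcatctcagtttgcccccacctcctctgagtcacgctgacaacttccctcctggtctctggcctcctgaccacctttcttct
Retnla: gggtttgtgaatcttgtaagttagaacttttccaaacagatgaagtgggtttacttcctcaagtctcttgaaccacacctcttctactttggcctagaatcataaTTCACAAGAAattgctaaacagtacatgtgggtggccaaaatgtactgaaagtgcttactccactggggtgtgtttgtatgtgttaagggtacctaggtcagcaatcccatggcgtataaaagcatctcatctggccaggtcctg

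Several genes that are not on the effector list had the pattern of *Ppargc1b*, with Veh M[IL-4] standing above the other 3 groups. *Il1rl1*, the IL-33 receptor ST2, was at 2.88, 2.29 and 2.15 CPM in Veh M[0], 4.48, 3.45 and 4.31 in RSM M[0], 24.9, 37.4 and 33.4 in Veh M[IL-4] and 12.1, 9.04 and 12.4 in RSM M[IL-4]. RSM M[IL-4] libraries were thus above both M[0] groups and below Veh M[IL-4], and the interaction was -2.25 ± 0.30 (FDR = 7.37e-05). Coagulation factor X (*F10*) had 3.71 ± 0.738, 5.11 ± 0.953, 60.4 ± 11.0 and 21.0 ± 3.32 CPM in Veh M[0], RSM M[0], Veh M[IL-4] and RSM M[IL-4] (SD, n = 3) and an interaction of -1.99 ± 0.28. *Mboat2*, a lysophospholipid acyltransferase, was at 5.22, 6.10 and 4.59 CPM in Veh M[IL-4] and at or below 1.12 CPM in every library of the other 3 groups, an interaction of -2.88 ± 0.52 (FDR = 0.00131). *Hebp2*, a haem-binding protein, was at 5.44, 7.49 and 8.29 CPM in Veh M[IL-4] and at most 2.16 CPM elsewhere (-2.34 ± 0.40). *Rnase6*, an antimicrobial ribonuclease (-1.97 ± 0.40), and the uncharacterized *5830415G21Rik* (-2.36 ± 0.56) completed the set. Without replicate 3, *Hebp2* (FDR = 0.0841), *Rnase6* (0.0946) and *5830415G21Rik* (0.113) missed the FDR threshold.

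Other genes with a called negative interaction were raised by RSM in M[0]. *Ptger3*, a prostaglandin E2 receptor, was at 0.885, 1.35 and 0.860 CPM in Veh M[0], 8.91, 14.1 and 12.1 in RSM M[0], 0.861, 1.86 and 1.68 in Veh M[IL-4] and 3.82, 4.84 and 3.57 in RSM M[IL-4]. RSM libraries were above their vehicle libraries in both conditions, and the interaction was -2.02 ± 0.41 (FDR = 0.00363). Without replicate 3 it was -1.69 and not called (FDR = 0.224). *Adamts5*, an aggrecan-degrading protease, spread widely within groups, with 20.4, 9.47 and 15.2 CPM in RSM M[0] and 21.2, 6.35 and 16.3 in RSM M[IL-4], against 2.32, 2.35 and 3.23 in Veh M[0] and 14.6, 6.79 and 16.0 in Veh M[IL-4]. Its interaction of -2.28 ± 0.59 lost its call without RSM M[0] replicate 1 (-1.99) or Veh M[IL-4] replicate 3 (-2.06), and without replicate 3 of every group (FDR = 0.228). *Mmp8*, a collagenase, rose with RSM in M[0] from 11.6 ± 1.82 to 49.0 ± 5.48 CPM and was at 17.8 ± 2.12 and 22.2 ± 1.79 CPM in M[IL-4] (SD, n = 3), an interaction of -1.76 ± 0.30. *Ccr1*, a receptor for several CC chemokines, had an interaction of -1.59 ± 0.23 (FDR = 0.000146).

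On the positive side, *Bmp2* and *Ms4a4a* had the largest called interactions among genes above 3 counts in every group and averaging at least 50 counts in the highest. *Bmp2*, a growth factor of the TGF-β family at chr2:133552159-133562885, plus strand, was at 14.9, 16.1 and 14.8 CPM in Veh M[0] and 2.56, 2.09 and 3.08 in RSM M[0]. In M[IL-4] it was at 3.28, 4.70 and 5.21 CPM under Veh and 8.10, 7.64 and 8.41 under RSM. RSM libraries were all below Veh in M[0] and all above Veh in M[IL-4], with fitted changes of -2.56 ± 0.16 and 0.87 ± 0.16 and an interaction of 3.43 ± 0.23 (FDR = 7.24e-08). *Ms4a4a*, a tetraspan membrane protein of macrophages at chr19:11375523-11392790, plus strand, was at 39.1, 54.2 and 39.8 CPM in Veh M[0] and 9.44, 10.0 and 7.96 in RSM M[0]. In M[IL-4] it was at 95.1, 145 and 125 CPM under Veh and 218, 304 and 285 under RSM. It was called lower with RSM in M[0] (-2.28) and higher in M[IL-4] (1.14), without overlap in either, an interaction of 3.42 ± 0.27 (FDR = 3.47e-07).

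Among the next in size, *Gng4*, a G protein gamma subunit, was at 1.44, 2.29 and 1.56 CPM in Veh M[0] and 2.72, 3.71 and 2.62 in RSM M[0], and at 0.646, 0.523 and 0.448 in Veh M[IL-4] and 7.79, 11.1 and 8.04 in RSM M[IL-4], an interaction of 3.26 ± 0.38. RSM M[IL-4] stood above the other groups. *Pecam1* (CD31) fell with RSM in M[0], from 2.32, 4.93 and 2.42 to 0.320, 0.418 and 0.154 CPM, and was at 7.32, 9.87 and 7.67 CPM in Veh M[IL-4] and 5.60, 6.57 and 4.26 in RSM M[IL-4]. Neither pair of groups overlapped, but the M[IL-4] groups lay closer. Its interaction was 2.81 ± 0.50 (FDR = 0.00121). *Cd4*, present at 5.81, 5.70 and 3.12 CPM in Veh M[0], was at most 0.700 CPM in every library of the other 3 groups, an interaction of 3.17 ± 0.50. *Tlr5*, the flagellin receptor, was at 3.73, 1.83 and 3.34 CPM in RSM M[0] and 2.60, 2.64 and 3.35 in RSM M[IL-4], against 0.774, 0.587 and 0.753 in Veh M[0] and 0.0538, 0 and 0.224 in Veh M[IL-4]. The RSM libraries of both conditions overlapped and the Veh libraries did not (2.78 ± 0.67, FDR = 0.0119). In Veh M[IL-4] *Tlr5* lay near the 0.154 to 0.172 CPM that 3 counts correspond to, so its interaction rests on few counts. *Cst7* (cystatin F, 3.08 ± 0.71) and the receptor *Cd300e* (3.10 ± 0.80) had few counts in RSM M[0]. *Cd300e* lost its call without RSM M[IL-4] replicate 3 (2.97, FDR = 0.0581), and without replicate 3 of every group so did *Cst7* (FDR = 0.113) and *Tlr5* (FDR = 0.0572).

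**Figure D2:**
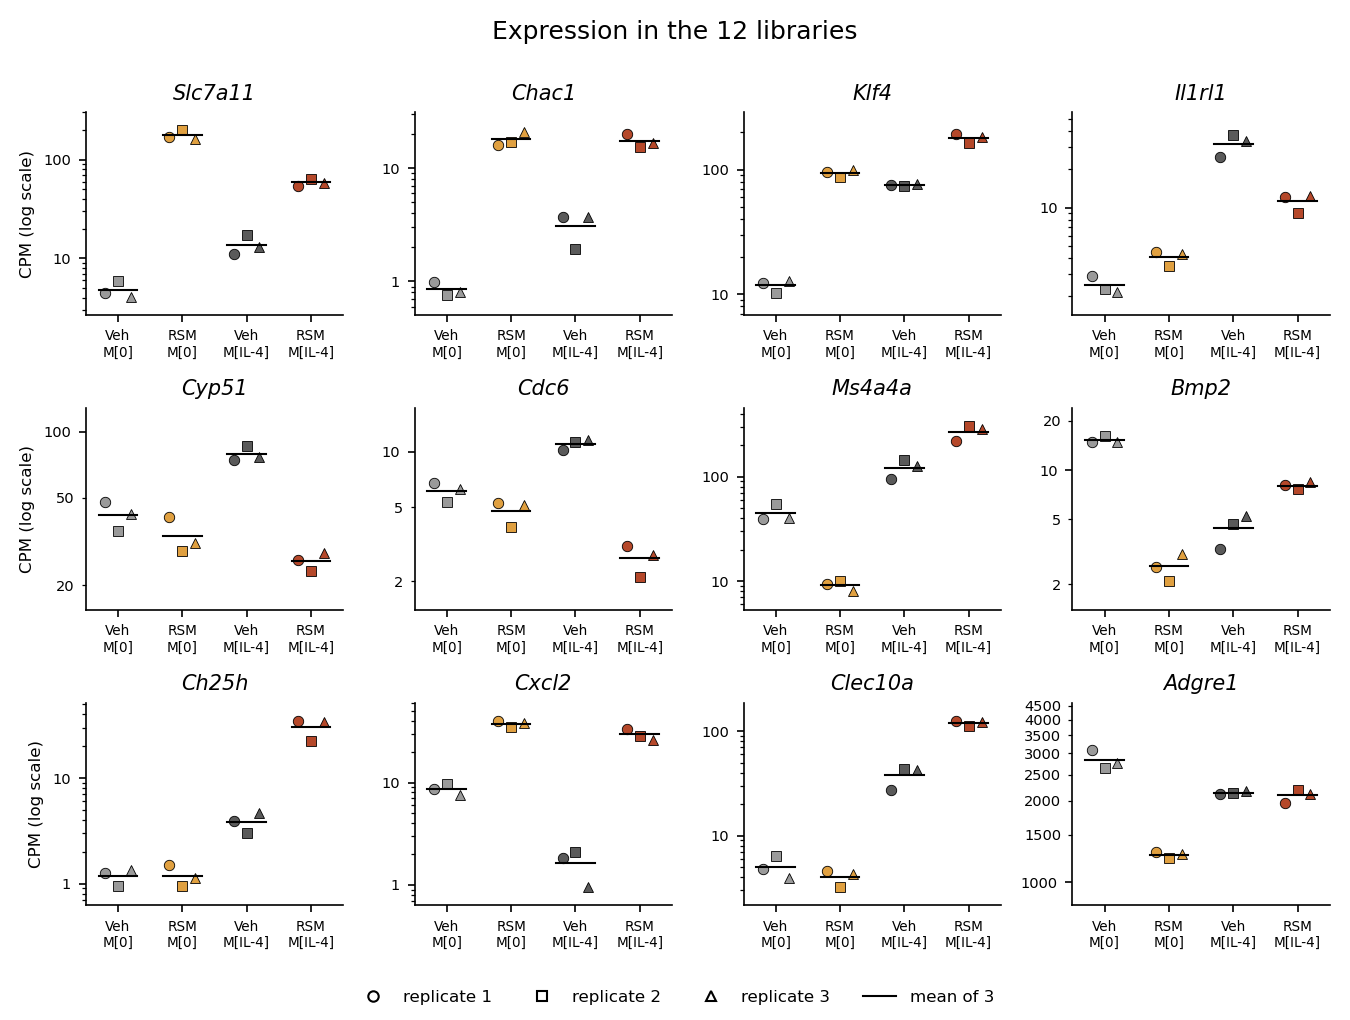
CPM of 12 genes in each of the 12 libraries on a log scale, with a point for each replicate and a line at the mean of 3. *Slc7a11* lies at 163 to 200.4 CPM in RSM M[0] and at 54.2 to 63.9 CPM in RSM M[IL-4], and *Ms4a4a* and *Bmp2* with RSM lay below Veh in M[0] and above it in M[IL-4].

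Of 10 genes that mark macrophage identity, 3 were called, all positive (1.22% of all genes), and all 10 had positive interactions (median 0.51). *Adgre1* (F4/80) was at 3083, 2653 and 2777 CPM in Veh M[0] and 1297, 1234 and 1268 in RSM M[0], and at 2119, 2145 and 2177 CPM in Veh M[IL-4] and 1967, 2202 and 2119.7 in RSM M[IL-4]. RSM libraries were all lower in M[0], and the M[IL-4] groups overlapped, an interaction of 1.13 ± 0.10 (FDR = 9.2e-07). The Fc receptor *Fcgr1* (CD64) was called lower with RSM in M[0] (-1.03) and had a change of 0.66 in M[IL-4], an interaction of 1.69 ± 0.15. Without replicate 3, 3 members were again called. The 6 stromal markers tested, whose levels differed between groups, had median log2 changes with RSM of 0.70 without and 0.65 with IL-4, and 0 were called for the interaction in edgeR's test or passed its FDR.

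Interferon-stimulated genes, the antiviral genes that type I interferon induces through ISGF3, carried the largest share of positive calls, and these calls rested in part on 1 library. Of 25 tested genes, 9 were called for the interaction, all positive (background 1.22%), with a median of 1.55. RSM itself was called to lower 9 of them and raise 0 in M[0], and to raise 5 and lower 2 in M[IL-4]. The summed level of the 25 was 583 to 697 CPM in Veh M[0], 345 to 379 in RSM M[0] and 328 to 408 in Veh M[IL-4]. In RSM M[IL-4] it was 342, 481 and 864 CPM, and all 25 genes were highest in replicate 3. Without that library 4 genes were called and the median was 0.86. Without RSM M[IL-4] replicate 1, the library with 342 CPM, 15 were called and the median was 1.92, and without replicate 2 of that group 12 were called with a median of 1.84. Without replicate 3 of every group, 2 were called and the median was 1.01. With a block for the replicate number within each polarization, 17 were called.

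*Oas2*, a sensor of double-stranded RNA, kept its call without that library. It was at 55.7, 62.0 and 53.2 CPM in Veh M[0] and 23.3, 28.7 and 25.2 in RSM M[0], and at 14.6, 15.0 and 19.0 in Veh M[IL-4] and 25.0, 35.6 and 51.7 in RSM M[IL-4]. All RSM libraries were below Veh in M[0] and above Veh in M[IL-4], an interaction of 2.35 ± 0.25 (FDR = 8.12e-06), and of 2.05 without RSM M[IL-4] replicate 3 (FDR = 5.53e-06). *Rtp4*, an interferon-induced inhibitor of viral replication, was not on the list. It was at 37.2, 39.4 and 39.2 CPM in Veh M[0], 12.6, 11.0 and 11.6 in RSM M[0], 6.57, 8.94 and 11.6 in Veh M[IL-4] and 9.47, 15.9 and 41.9 in RSM M[IL-4]. Its M[IL-4] groups overlapped, and its interaction of 3.03 ± 0.49 was 2.21 without that library (FDR = 0.000124), with 15.9% of its transcript near-identical to another. *Irf7*, the factor that amplifies the interferon response, was at 13.1, 21.9 and 46.3 CPM in RSM M[IL-4] against 7.21, 6.39 and 10.0 in Veh M[IL-4]. Its interaction of 2.36 ± 0.46 was 1.73 without the library and still called (FDR = 0.00412), as were those of *Oasl2* (1.32) and *Oas1a* (1.01).

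*Rsad2* (viperin), chosen for display after its values had been seen, was at 5.55, 9.74 and 40.7 CPM in RSM M[IL-4] against 2.42, 4.82 and 6.05 in Veh M[IL-4], 7.31, 9.26 and 10.3 in RSM M[0] and 9.29, 14.7 and 11.6 in Veh M[0]. Its interaction of 2.48 ± 0.74 (FDR = 0.0425) was 1.20 without replicate 3 of RSM M[IL-4] (FDR = 0.185), and it missed the call without each of 8 other single libraries at 2.18 to 2.78. *Ifit3* (2.90 ± 0.77), *Ifi44* (2.84 ± 0.87), *Oas3* (1.55 ± 0.37) and *Ddx58* (RIG-I, 1.24 ± 0.26) also lost their calls without RSM M[IL-4] replicate 3, at 1.52, 1.56, 0.94 and 0.86. *Ifit3* also missed the FDR (0.0511 to 0.0537) without Veh M[0] replicate 2, RSM M[0] replicate 1 or Veh M[IL-4] replicate 1, and *Ifi44* (0.0544 to 0.128) without any M[0] library other than Veh replicate 3 or without Veh M[IL-4] replicate 1 or 2.

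**Figure D3:**
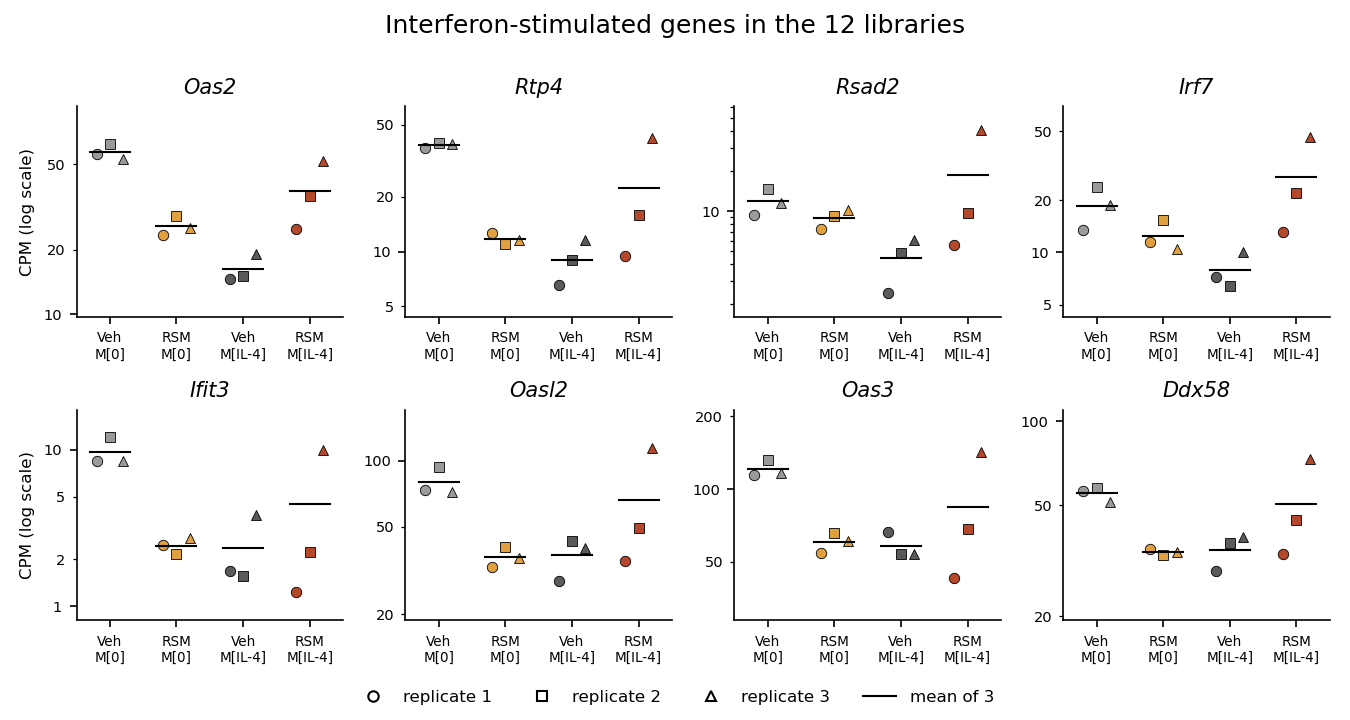
CPM of 8 interferon-stimulated genes in each of the 12 libraries on a log scale, with a point for each replicate and a line at the mean of 3. Replicate 3 of RSM M[IL-4] is the highest of its group for all 8, for *Rsad2* at 40.7 CPM against 5.55 and 9.74.

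The bases before the start of *Rsad2* (chr12:26456453-26456702, minus strand) and *Ifit3* (chr19:34583279-34583528, plus strand) are shown with the interferon-stimulated response element in capitals (GAAANNGAAA, or TTTCNNTTTC on the other strand).
Rsad2: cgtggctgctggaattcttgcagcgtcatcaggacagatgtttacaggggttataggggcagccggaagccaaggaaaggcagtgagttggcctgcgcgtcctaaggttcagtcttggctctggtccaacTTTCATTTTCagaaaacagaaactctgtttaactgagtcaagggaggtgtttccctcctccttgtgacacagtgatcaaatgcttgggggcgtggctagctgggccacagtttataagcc
Ifit3: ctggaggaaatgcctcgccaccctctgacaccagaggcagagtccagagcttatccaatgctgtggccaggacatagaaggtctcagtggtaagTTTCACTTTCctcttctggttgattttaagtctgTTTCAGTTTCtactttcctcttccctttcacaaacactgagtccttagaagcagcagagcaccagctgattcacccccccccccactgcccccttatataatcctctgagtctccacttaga
Its letters occur in the promoter windows of 14 of 20 interferon-stimulated genes with one in the RefSeq table (70.0%), 17 of 128 called positive genes (13.3%), 5 of 97 called negative genes (5.15%) and 418 of 10544 genes (3.96%). The called positive genes with these letters include *Ddx58*, *Ddx60*, *Irgm2*, *Slfn5* and *Ifitm3*. Also among the 17 are *Ifit3*, *Oas3* and *Rsad2*, which like *Ddx58* lost their calls without RSM M[IL-4] replicate 3. The share among called positive genes was not computed without that library. Both this element and the ATF4 element were searched after the genes had been seen.

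Of 20 chemokine ligands, 4 were called, all positive (1.22% of all genes). Of 8 chemokine receptors, 2 were called, 1 in each direction (2.14% of all genes in either). *Ccl7*, a ligand of CCR2 that recruits monocytes, was at 17.7, 13.4 and 18.9 CPM in Veh M[0] and 17.4, 10.6 and 11.2 in RSM M[0], with overlap. In M[IL-4] it was at 62.7, 55.0 and 75.6 CPM under Veh and 255, 171 and 255 under RSM, without overlap, giving an interaction of 2.17 ± 0.27 (FDR = 3.59e-05). The chemokine gene *Ccl2* had 12.8 ± 1.07 and 8.48 ± 2.65 CPM in Veh and RSM M[0], 47.8 ± 5.92 and 76.6 ± 18.1 in Veh and RSM M[IL-4] (SD, n = 3) and an interaction of 1.27 ± 0.27. *Cxcl2*, which recruits neutrophils, rose with RSM in both conditions. It was at 8.68, 9.63 and 7.64 CPM in Veh M[0], 40.1, 35.2 and 37.8 in RSM M[0], 1.83, 2.09 and 0.952 in Veh M[IL-4] and 33.4, 28.8 and 26.3 in RSM M[IL-4], so that Veh M[IL-4] was the lowest group, and its interaction was 2.06 ± 0.27 (FDR = 5.69e-05). *Pf4* (platelet factor 4) was near the threshold at 1.02 ± 0.22 and lost its call at 0.90 to 0.997 without any 1 of 7 libraries (Veh M[0] 2 and 3, RSM M[0] 2, Veh M[IL-4] 1 and 2, RSM M[IL-4] 1 and 3). The eotaxin receptor *Ccr3* fell with RSM in both conditions, with an interaction of 1.15 ± 0.29 that lost its call without RSM M[0] replicate 2 (0.92) or Veh M[IL-4] replicate 1 (0.99). Without replicate 3, 2 chemokine ligands were called, *Ccl2* not among them (FDR = 0.144), 1 ligand was called negative without Veh M[0] replicate 3, 2 receptors were called negative without RSM M[IL-4] replicate 3, and with a replicate block within each polarization 5 positive and 1 negative, beside 1 positive and 2 negative receptors.

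Single calls in the next 2 lists stand against 2.14% of all genes called and say little about the lists. Among 18 cytokines and growth factors 1 was called: *Osm* (oncostatin M) was at 9.82 ± 0.969 and 15.9 ± 1.16 CPM in M[0] and at 5.77 ± 1.62 and 22.5 ± 3.08 CPM in M[IL-4] (SD, n = 3), an interaction of 1.27 ± 0.23 (FDR = 0.00161, and 0.0761 without replicate 3). Of 13 NRF2 target and iron genes, transferrin (*Trf*) was called. It fell with RSM from 500.3 ± 35.4 to 88.3 ± 5.00 CPM in M[0] and from 531 ± 60.5 to 192 ± 12.1 in M[IL-4], an interaction of 1.04 ± 0.13. That call was lost without Veh M[0] replicate 2 (0.98) or Veh M[IL-4] replicate 1 (0.95), and 82.1% of its transcript has a near-identical copy. Of 15 metalloproteinase and TIMP genes, *Mmp8* and *Mmp10* were called, the latter at 2.39 ± 0.73 on mean levels of 0.331 CPM in RSM M[0] and 1.54 CPM in Veh M[0]. The call for *Mmp10* was lost without any 1 of 9 libraries, at 2.09 to 2.48 and an FDR of 0.0626 to 0.123. The list held 2 positive calls without RSM M[IL-4] replicate 1, and 0 with DESeq2.

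The genes closest to the inhibited step showed no call. Of 25 genes of choline and phosphatidylcholine metabolism, 0 were called in edgeR's test, against 2.14% of all genes, with a median interaction of 0.05. With the FDR alone 4 passed, against 9.19% of all genes. The choline kinase gene *Chka* had an interaction of 0.05, and the choline transporter gene *Slc44a1* one of -0.47. RSM lowered 10 of 14 mitochondrial mRNA and rRNA genes in M[0] and 10 in M[IL-4] (medians -1.67 and -1.78), and raised 2 in each condition. Of the 14, 0 were called for the interaction or passed its FDR, with 12 on the negative side and a median interaction of -0.09. Without Veh M[IL-4] replicate 1, 1 of them was called negative. RSM lowered 6 of 8 tested MHC class II genes in M[0] and all 8 in M[IL-4] (medians -3.10 and -3.17), and none was called for the interaction. *H2-DMb1* (-0.996) and *H2-DMa* (-0.94) passed the FDR alone. The number of class II genes called negative was 1 with either replicate block, with DESeq2, with RLE scaling or with mitochondrial genes left out. It was 2 with no count filter, and 1 and 2 without replicate 1 and 2 of every group. Negative class II calls also appeared when a library was left out, 3 without Veh M[IL-4] replicate 1, 2 without Veh M[0] replicate 2 or RSM M[0] replicate 1, and 1 without RSM M[0] replicate 3 or Veh M[IL-4] replicate 3. No gene was called among 14 lipid uptake and storage genes or 15 p53 targets, with medians of 0.04 and 0.06. At 2.14% of all genes called, lists of these sizes can hold 0 calls without differing from the rest. A missed threshold does not show that the 2 responses were equal.

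**Figure D4:**
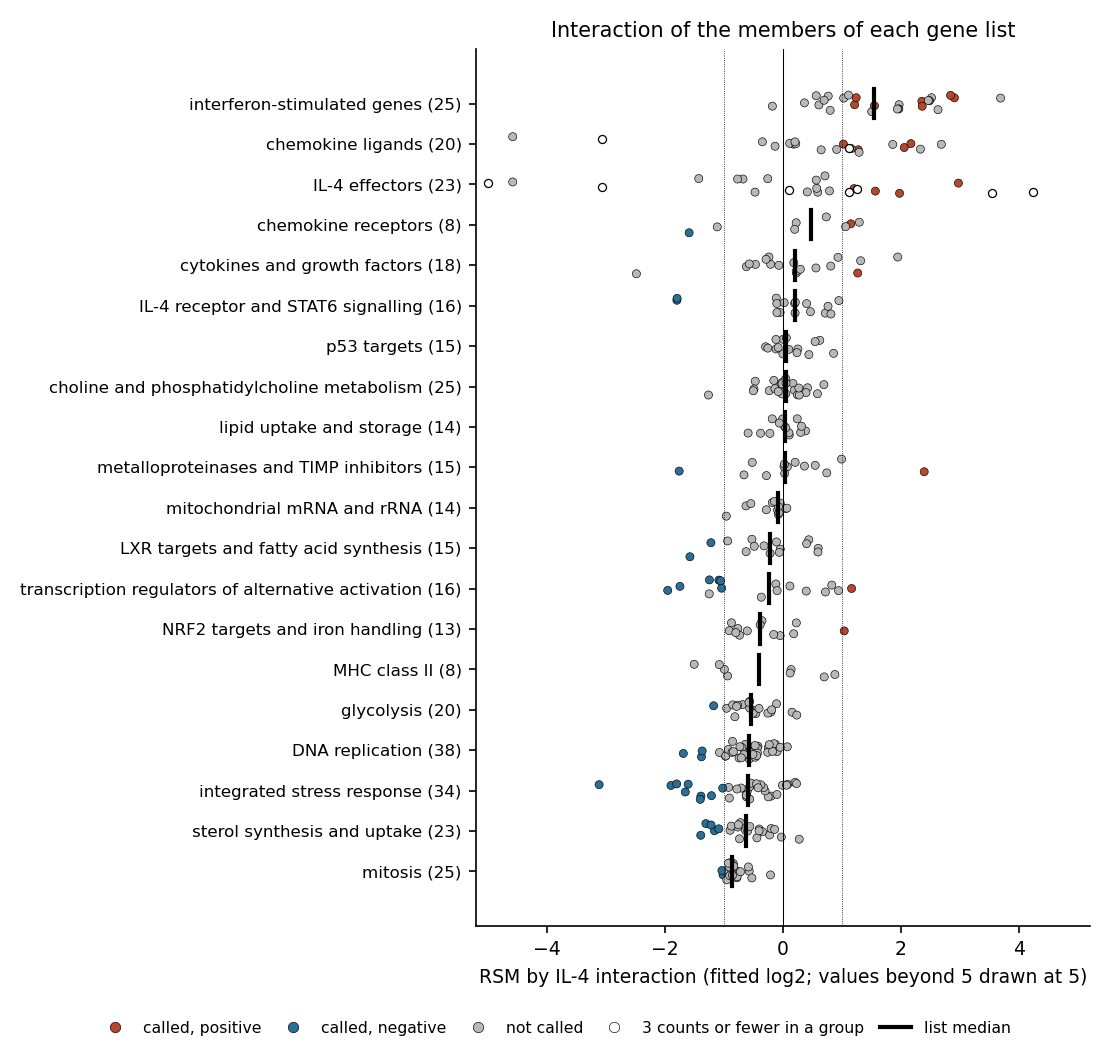
Fitted log2 interaction of each tested member of 20 gene lists (number of members in brackets), with called genes coloured, genes with 3 counts or fewer in a group drawn open, and a bar at the list median where no member is open. Mitosis, sterol synthesis, integrated stress response and DNA replication genes lie mostly below 0 and interferon-stimulated genes above it, while choline genes lie on both sides of 0, 13 above and 12 below.

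RSM changed 9 genes in opposite directions in the 2 conditions, each past both thresholds and called for the interaction. Without RSM M[IL-4] replicate 3 this held for 4 genes, without RSM M[IL-4] replicate 1 for 13, without RSM M[0] replicate 2 for 6, without replicate 3 of every group for 2 and with DESeq2 for 5. Those that missed it without RSM M[IL-4] replicate 3 did so on their RSM change in M[IL-4], which was then 0.90 for *Oas2* (FDR = 8.35e-05), 0.49 for *Rtp4* (0.0964), 0.95 for *Cystm1* (0.0199), 0.68 for *Cables1* (0.0805) and -1.20 for *Cd24a* (0.0552). Besides *Ms4a4a*, *Oas2* and *Rtp4* these include *Cystm1* (-1.04 in M[0] and 1.15 in M[IL-4]), a small cysteine-rich membrane protein, and *Cables1* (-1.19 and 1.003), a CDK-binding protein with 34.2% of its exons overlapped on the opposite strand. In the other direction, *Cd24a*, a glycosylated surface protein, was at 4.37, 7.28 and 4.09 CPM in Veh M[0] and 9.76, 16.3 and 9.60 in RSM M[0], and at 4.20, 11.0 and 8.34 in Veh M[IL-4] and 2.19, 4.63 and 3.09 in RSM M[IL-4]. RSM M[0] had the highest mean and overlapped Veh M[IL-4], replicate 2 was the highest library of each group, and the M[IL-4] groups overlapped, an interaction of -2.43 ± 0.54 (FDR = 0.00702). Without replicate 3 it was -2.32 and not called (FDR = 0.194). The small GTPase gene *Diras2* was at 2.03, 3.03 and 2.26 CPM in RSM M[0] and at most 1.46 CPM in the other libraries (-4.41 ± 0.63), the largest negative interaction among called genes above 3 counts in every group.

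Of the called genes, 6 positive and 6 negative had 3 counts or fewer summed over a group, and are given as counts. P-selectin (*Selp*) had 1 count over the 3 Veh M[0] libraries, 207, 243 and 175 in RSM M[0], 14, 13 and 10 in Veh M[IL-4] and 202, 194 and 169 in RSM M[IL-4]. *Ksr2*, a scaffold of the RAF-MEK-ERK pathway, had 18, 39 and 22 counts in Veh M[0], 1 over the 3 RSM M[0] libraries, 382, 559 and 386 in Veh M[IL-4] and 113, 88 and 74 in RSM M[IL-4]. RSM libraries were thus below their Veh libraries in both conditions, and near 0 in M[0]. The unnamed *Gm38575* and *Gm8989* had 0 counts over Veh M[0] and over RSM M[0], respectively, and 99.99% of the *Gm8989* transcript has a near-identical copy. Just inside the fold threshold were *Zfp169* (1.000), *Fcna* (1.002), *Prkcb* (-1.01) and *Bub1* (-1.02), and just outside were *Rcbtb2* (0.995), *Nlgn2* (0.99), *Spn* (-0.999) and *Cdca2* (-0.998).

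Finally, the interaction of RSM with IL-4 was compared with that of HC3, given at 250 µM. The 2 interactions share the vehicle libraries, so their difference was tested as the IL-4 effect under RSM minus that under HC3, in which no vehicle library enters. Of 14979 genes, 11 (0.0734%) were called, all more positive for RSM, and 950 had an unadjusted p under 0.05. With the FDR alone 28 passed, 26 of them positive. Without replicates 1, 2 and 3 in turn the count was 2, 12 and 3, and with a replicate block within each polarization it was 45.

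*Itgax* differed most among genes with counts in every group. It rose with IL-4 from 2.88, 2.20 and 1.39 to 87.0, 99.7 and 84.0 CPM under RSM, and from 57.0, 50.9 and 43.5 to 476, 555 and 450.1 CPM under HC3. The RSM levels were lower than the HC3 levels in both conditions. Its interaction was 1.20 ± 0.23 for RSM and -0.89 ± 0.17 for HC3, a difference of 2.10 ± 0.23 (FDR = 0.00038). *Egr2*, a STAT6-induced factor, went from 3.79, 3.56 and 4.83 to 71.8, 76.3 and 66.0 CPM with IL-4 under RSM and from 13.2, 12.9 and 13.4 to 89.6, 99.2 and 86.2 under HC3, a difference of 1.33 ± 0.15 (FDR = 0.000532). The chemokine gene *Ccl7* reached 255, 171 and 255 CPM in RSM M[IL-4] and 95.2, 86.4 and 115 in HC3 M[IL-4], from 17.4, 10.6 and 11.2 CPM in RSM M[0] and 19.4, 17.0 and 16.3 in HC3 M[0] (1.62 ± 0.27).

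The neuronal pentraxin *Nptx1* had interactions of 1.79 for RSM and 0.00 for HC3, and went from 5.60, 6.22 and 6.83 to 7.28, 6.73 and 5.75 CPM with IL-4 under RSM and from 20.5, 26.0 and 31.0 to 7.02, 7.47 and 9.20 under HC3. The RSM groups overlapped and the HC3 groups did not. *Atp6v0d2*, a subunit of the vacuolar proton pump (1.10 for RSM, -0.43 for HC3), *Gng4* (3.26 and 1.43), *Bmp2* (3.43 and 2.17), the Rab GTPase-activating protein *Tbc1d4* (1.27 and 0.14) and *Arap2* (1.36 and 0.32; 20.3% of its transcript has a near-identical copy) were further calls. The call of *Atp6v0d2* for the RSM interaction was lost at 0.999 without Veh M[IL-4] replicate 1. For the integrin *Itgb3* the RSM interaction was -0.18 ± 0.26 and that of HC3 -1.71 ± 0.26, the first of which was not called. *Slc7a11* had interactions of -3.12 and -2.29, *Klf4* of -1.75 and -1.78 and *Ms4a4a* of 3.42 and 2.86, and their differences did not pass the FDR (0.508, 0.999 and 0.905).

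**Figure D5:**
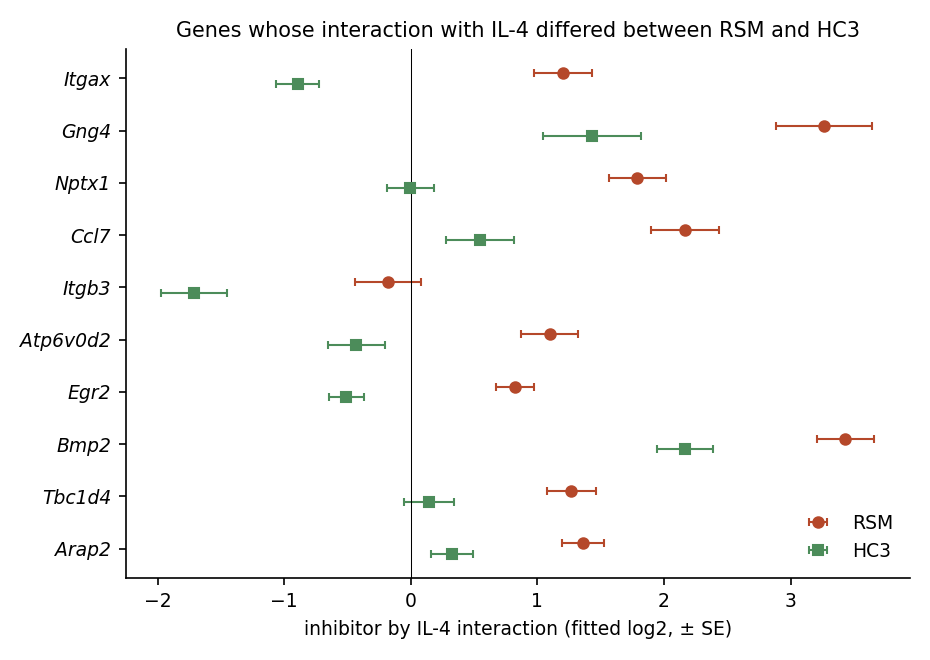
Fitted log2 interaction with IL-4 for RSM (circles) and HC3 (squares), with bars of 1 SE, for 10 of the 11 genes called for a difference between them (*Gm8989*, with 0 counts in RSM M[0], is left out). The RSM value is the more positive of each pair, from *Itgax* (difference 2.1) to *Arap2* (1.04).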

How the data were processed

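Poly-T selected mRNA was sequenced. After trimming (fastp), the authors used STAR in local mode against GRCm38, kept read pairs of mapping quality 40, marked duplicates without removing them and deposited raw counts of pairs on exons per Ensembl gene (featureCounts). The annotation release and strand setting were not given in the sources used here. Gene symbols came from GENCODE vM21 and matched 55144 of 55385 identifiers.

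Groups came from the sample labels. The members and gene lists were chosen with earlier results of these data known. Genes reaching 10 counts in any 2 of the 18 libraries were fitted with edgeR 4.0.16 (TMM scaling, quasi-likelihood test, a coefficient for each of the 6 groups, no block, Benjamini-Hochberg FDR), tested on simulated data first. CPM values are counts scaled to TMM-adjusted totals, and all fold changes are fitted by edgeR. Limits of 3 counts cover counting error only. Deviations from group means correlated at 0.125 to 0.320 for all 6 same-numbered pairs within a polarization. Across polarizations same-numbered pairs were at 0.0378 to 0.3005, above 0.1 for 6 of 12, against 3 of 36 pairs with unlike numbers. The numbers thus pair libraries within a polarization, and whether they also do so across polarizations is not settled.

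Named genes were the 12 largest called interactions in each direction (at least 50 counts on average in the highest group, above 3 counts in every group, the same sign in all 3 same-numbered sets), up to 6 genes called in opposite directions, 4 with 3 counts or fewer in a group, up to 6 called members of each list, every member of the IL-4 receptor, effector and regulator lists, and those nearest the threshold. The genes of the HC3 comparison and a few uncalled list members were named after their values had been seen. A few list members that the rule names are not reported here. Near-identical copies had at least 98% identity over 100 bases (blastn 2.17.0). Alternatives were a replicate block, DESeq2 1.42.0, other scalings and filters, mitochondrial genes left out, the compared groups alone, and left-out libraries, of which the single libraries were chosen after seeing the data.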

Additional observations from a re-analysis of the deposited data

Results flagged for a closer look

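The response to RSM differed between M[0] and M[IL-4] for 321 genes by the test of the interaction itself, in edgeR's quasi-likelihood test. The interaction with IL-4 differed between RSM and HC3 for 11 genes, by a test in which no vehicle library enters. The differences, RSM minus HC3 on the log2 scale, were 2.1 for *Itgax*, 1.83 for *Gng4*, 1.79 for *Nptx1*, 1.62 for *Ccl7*, 1.53 for *Itgb3*, 1.53 for *Atp6v0d2*, 1.33 for *Egr2*, 1.27 for *Bmp2*, 1.13 for *Tbc1d4* and 1.04 for *Arap2*, each in 3 libraries a group. The remaining gene, *Gm8989*, had 0 counts in RSM M[0].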

How the results depend on the processing

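The interaction was called for 128 to 278 genes when replicate 1, 2 or 3 of every group was left out (73 to 157 positive, 55 to 121 negative), the lowest without replicate 3, and for 271 to 369 when a single library was left out (up to 212 positive and 165 negative). With the FDR alone it was called for 1377 genes (757 positive, 620 negative), and RSM was called to change 6159 genes in M[0] and 5785 in M[IL-4]. The replicate block, which takes the numbers as paired across polarizations, gave 373 interaction calls. The block within each polarization, which takes them as paired there alone, gave 416 (240 positive, 176 negative) beside 1825 RSM calls in M[0] and 1750 in M[IL-4]. These, DESeq2, the other scalings and the filters stayed within 1.5 times the 321 of the unblocked fit. The difference between RSM and HC3 was called for 11 genes, for 32 with a replicate block, 45 with a replicate block within each polarization, 25 with DESeq2, 49 with no count filter, 28 with the FDR alone, and 2 to 12 with a replicate number left out. Other than the list counts given with the results, the replicate block within each polarization ended 3 named calls at the fold threshold (*Zfp169*, *Fcna* and *Prkcb*). Of 84 named and called genes above 3 counts in every group, 78 were not counted as lost in any alternative that left out no library. Over all alternatives this held for 38, and 0 changed sign. With DESeq2, 80 of the 84 were called and 2 fell short of the call. The rest, among them *Mmp10*, had no call with DESeq2 but were not counted as lost. Leaving out replicate 1, 2 or 3 of every group ended 20, 12 and 40 named calls. The last set included *Cst7*, *Tlr5*, *Cd24a*, *Ptger3*, *Adamts5*, *Chac1*, *Clec7a*, *Cish*, *Myc*, *Irf4*, *Cdc6*, *Idi1*, *Fads2*, *Oas1a*, *Irf7*, *Ccl2*, *Ccr3* and *Atp6v0d2*. The cause of these changes was not tested. For 7 IL-4 effectors with 3 counts or fewer in a group, no interaction could be measured at this depth.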
